A study of Mus musculus with 6 samples.

Results

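The genes described here build, fold and clear proteins in the endoplasmic reticulum (ER). They are 37 genes chosen by symbol, namely 12 chaperones and co-chaperones, 7 thiol-disulfide enzymes, 11 genes of ER-associated degradation (ERAD), 3 genes of the protein-conducting channel and 4 genes of the stress sensors and their transcription factors. The files list all 37, among 16081 genes, and 36 passed the filter on low counts. They were measured by RNA-seq in Lewis cells, a mouse lung carcinoma line in culture, of which 3 samples were kept for 24 hours with SD70, an inhibitor of the histone demethylase KDM4C, and 3 with its vehicle DMSO. Both groups were the same cell line in the same serum-containing medium, although the extraction protocol in the labels describes tissue. The SD70 dose of this experiment is not given in the sources used here, and the general statement that experiments were independently repeated does not say whether the 3 samples of each RNA-seq group were separate cultures. If they were not, p-values measure only a technical spread between these samples.

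Protein that enters the ER is folded by chaperones and by enzymes that form disulfide bonds, and protein that fails to fold is passed back to the cytosol and destroyed by ERAD. When misfolded protein builds up, IRE1 (Ern1) splices the mRNA of the transcription factor XBP1, ATF6 is cut to release a transcription factor, and PERK phosphorylates eIF2alpha, which favours translation of ATF4. ATF6 and XBP1 are known to drive genes of folding and ERAD, whereas ATF4 is known to drive genes of amino acid supply, tRNA charging and stress signalling and is also reached through eIF2alpha kinases that sit outside the ER. The question put to the data was which of these groups of target mRNAs differed between SD70 and DMSO.

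Totals ranged from 15276744 to 17060424 expected counts per sample. Values below are normalized counts, which are expected counts brought to the average effective library size of all samples, unless FPKM is named. The test was edgeR's quasi-likelihood test of SD70 against DMSO, from which log2 changes are given with their standard error (SE), and a gene is said to have risen or fallen at a Benjamini-Hochberg adjusted p under 0.01 over the 11552 genes tested. At that threshold 25.8% of all tested genes rose and 24.2% fell, so a call alone was common in these samples. Of 6 carcinoma markers, Vim (46675 to 71555) and Krt8 (2535 to 4031) were abundant in every sample, Krt18 was low, and Krt19, Epcam and Cdh1 lay between 0 and 1.10. The summed carcinoma list was 68281 to 75471 with DMSO and 49247 to 54017 with SD70, nearly all of it Vim, a gene that mesenchymal cells also express, and Vim, Krt8 and Krt18 all fell. The 5 listed immune markers summed to 261 to 268 with DMSO and 184 to 217 with SD70, with Ptprc between 0 and 2.20 and Csf1r at 0 in 5 of 6 samples. Most of that sum was Cd68, which fell from 239.8 ± 6.01 to 172 ± 16.2 (SD, n = 3, edgeR adjusted p = 0.000121), while Lyz2 was at 12.3 ± 1.91 and 21.2 ± 4.95 and did not pass. The 4 stromal markers summed to 1763 to 1857 and 919.6 to 992, nearly all of it Pdgfra. The 2 listed lung epithelial markers summed to 65.1 to 82.8 and 64.5 to 88.0, with Sftpc at 0 in 5 of 6 samples. In bulk RNA, fewer cells of a type and less RNA per cell cannot be told apart. The part of these shifts in the results that follow was not tested.

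The ER genes as a group were close to the background. Of the 36 members tested, 9 rose (25.0%) and 10 fell (27.8%), and the remaining 17 did not pass. Their median log2 fold change was -0.03, against -0.00432 over all genes tested. At an added minimum of a 2-fold change, 2 members were called, Herpud1 and Ern1, both higher; over all genes 3.29% were higher and 2.61% lower at that rule. The 3 SD70 samples lay wholly above or wholly below the 3 DMSO samples in 25 members, and this was the case in 64.4% of all genes tested. For such a gene taken alone, the exact two-sided permutation test gives p = 0.1, which is as low as groups of 3 can go.

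The promoters of these genes are shown first, since sequence elements for the transcription factors of each arm are known. The ER stress response element (ERSE, CCAAT and CCACG with 9 bases between) and its shorter form ERSE-II (ATTGG and CCACG with 1 base between) are bound by ATF6 with NF-Y, and XBP1 binds the element UPRE (TGACGTGG). The C/EBP-ATF composite element (CARE, TGATGCAA) is bound by ATF4 with its partners. Each was searched on both strands, as exact letters, in RefSeq promoter sequences of GRCm38.p6 that run from 250 bases before to 50 after the annotated start, of which 31 of the 37 members had one. In 25 of the 31, the first 50 transcribed bases were found within a GENCODE M21 transcript of the gene, at any position. Whether they lay at its start was not checked.

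ERSE was found in 9 of the 31, namely Hspa5, Hsp90b1, Calr, Canx, Pdia6, Dnajc3, Creld2, Syvn1 and Derl3, and in 39 of 32851 promoters (0.119%). The windows of the 3 ERSE genes that rose or fell are printed here 5′ to 3′ on the strand of the gene, with the element in capitals. The Hspa5 window lies at chr2:34772005-34772063 on the plus strand. Hsp90b1 holds the element in both orientations, the outer at chr10:86705618-86705676 and the inner at chr10:86705513-86705571 on the minus strand. The Pdia6 window lies at chr12:17266471-17266529 on the plus strand.
Hspa5: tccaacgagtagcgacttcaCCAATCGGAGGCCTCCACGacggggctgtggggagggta
Hsp90b1, outer: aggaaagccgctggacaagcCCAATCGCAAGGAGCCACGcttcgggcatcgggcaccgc
Hsp90b1, inner: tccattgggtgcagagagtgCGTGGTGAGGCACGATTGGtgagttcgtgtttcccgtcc
Pdia6: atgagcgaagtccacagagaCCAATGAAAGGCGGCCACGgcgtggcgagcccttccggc

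Herpud1 was the only member whose window held both an ERSE-II, 52 to 42 bases before the start, and a CARE, 112 to 105 bases before it. Its window is shown because it is the member with the largest change, and that of Chac1, an ATF4 target outside the members, because it holds the same 8 letters in the same orientation. Capitals mark CARE, read on the opposite strand, and, in Herpud1, ERSE-II after it. Herpud1 is at chr8:94386299-94386428 and Chac1 at chr2:119351029-119351076, both on the plus strand.
Herpud1: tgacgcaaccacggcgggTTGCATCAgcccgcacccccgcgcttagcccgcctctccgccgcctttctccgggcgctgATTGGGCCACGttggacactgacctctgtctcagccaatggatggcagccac
Chac1: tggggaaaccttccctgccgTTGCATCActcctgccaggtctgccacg

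Among the sensors and their factors, 3 of 4 genes rose with SD70 (75.0%, against 25.8% of all genes tested) and 0 fell (0.0%, against 24.2%). Ern1, the kinase and RNase IRE1 that splices Xbp1 mRNA, had 1754, 1791 and 1689.8 normalized counts in DMSO samples 1, 2 and 3, against 4725, 4352 and 5105 in the SD70 samples so numbered. The groups were far apart, and Ern1 was 2.71-fold higher (log2 change 1.44 with SE 0.0554, edgeR adjusted p = 1.72e-21). Atf6, the membrane-bound precursor of a transcription factor, had 3610.4, 3377 and 3302 with DMSO and 5725, 5364 and 5931 with SD70. The groups did not overlap, and the fold was 1.65 (log2 change 0.73 with SE 0.0517, edgeR adjusted p = 3.16e-14).

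Xbp1 had 2327, 2326 and 2511 normalized counts with DMSO and 3633, 3709 and 3775 with SD70. The groups did not overlap, and Xbp1 was 1.55-fold higher (log2 change 0.63 with SE 0.0503, edgeR adjusted p = 5.03e-13). The counts are per gene and do not separate spliced from unspliced Xbp1 mRNA, and neither the cutting of ATF6 nor the phosphorylation of eIF2alpha is an RNA-seq measurement. Atf6b, a paralog of Atf6, had 1339.9, 1328 and 1389.6 with DMSO and 1229, 1439 and 1364 with SD70. The groups overlapped (log2 change -0.01 with SE 0.0587, edgeR adjusted p = 0.906), and the sign turned to 0.05 without SD70 sample 1.

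**Figure D1:**
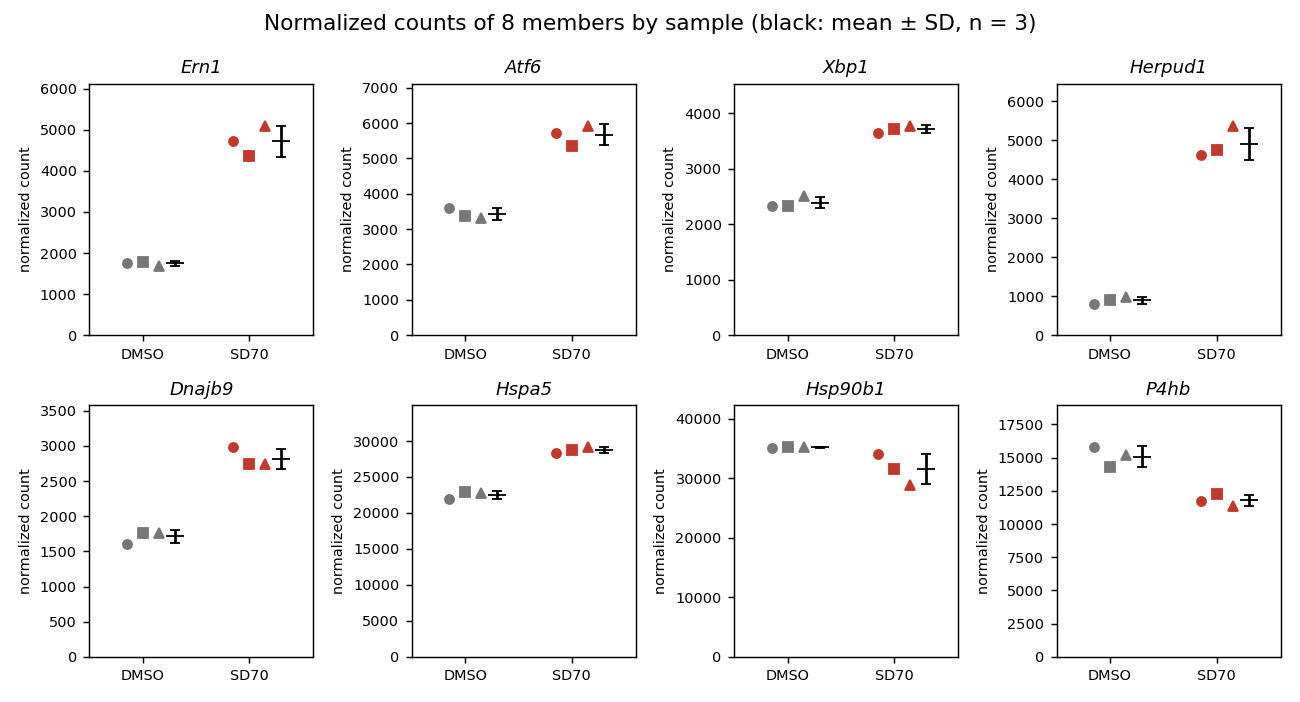
Normalized counts (y axis, from 0) of 8 members in the 3 DMSO and 3 SD70 samples, with the marker shape giving the sample number and black bars the mean ± SD (n = 3). Ern1, Atf6, Xbp1, Herpud1, Dnajb9 and Hspa5 are higher in every SD70 sample, Hsp90b1 and P4hb are lower, and the Herpud1 samples move from 800.0 to 985 up to 4612 to 5379.

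Of the 12 chaperones, 3 rose (25.0%), 3 fell (25.0%) and 6 did not pass, shares close to the 25.8% and 24.2% of all genes tested. Hspa5, which encodes BiP, the main Hsp70 chaperone of the ER, had 21921, 22911 and 22841 normalized counts with DMSO and 28325, 28776 and 29126 with SD70. All SD70 samples were higher, by a modest 1.27-fold (log2 change 0.35 with SE 0.0468, edgeR adjusted p = 7.38e-08). Dnajb9, which encodes ERdj4, a co-chaperone of BiP, had 1611, 1769 and 1768 with DMSO and 2981, 2739 and 2738 with SD70. It was the chaperone gene with the largest change, 1.64-fold higher (log2 change 0.72 with SE 0.0543, edgeR adjusted p = 1.56e-13). Dnajb11, which encodes the BiP co-chaperone ERdj3, also rose, with a log2 fold change of 0.26 (SE 0.0576, edgeR adjusted p = 0.000271); its promoter entry holds an ERSE-II that lies 8 to 18 bases after the start.

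Sdf2l1, which encodes a partner of ERdj3, went the other way. It had 680.2, 630.3 and 701 normalized counts with DMSO and 442, 478 and 454 with SD70. The groups were separate and the level was 1.46-fold lower with SD70 (log2 change -0.55 with SE 0.0704, edgeR adjusted p = 3.13e-08).

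Hsp90b1, the ER member of the Hsp90 family (GRP94), had 35142, 35212 and 35205 normalized counts with DMSO and 34003, 31578 and 28957 with SD70. The SD70 samples were spread more widely than the DMSO samples but all lay below them, and the fall was small (log2 change -0.16 with SE 0.0513, edgeR adjusted p = 0.00793). The Hsp90b1 call was lost in 5 of the 6 edgeR fits that left out 1 sample, with the largest adjusted p, 0.0655, without SD70 sample 3. The log2 change was -0.11 in that fit and between -0.17 and -0.16 in the other fits that lost the call. Hspa13, an Hsp70 family member of microsomes, fell by 0.19 on the log2 scale (edgeR adjusted p = 0.00346) and lost its call without DMSO sample 2 (adjusted p = 0.0167), DMSO sample 3 (0.0287) or SD70 sample 3 (0.0214).

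The 6 chaperone genes that did not pass had small fitted changes. The lectin chaperones calreticulin (Calr) and calnexin (Canx), which bind sugar chains on new glycoproteins, had log2 fold changes of 0.11 (SE 0.0520) and 0.07 (SE 0.0468). Hyou1, a large Hsp70-like exchange factor for BiP, was at -0.04, Dnajc3 (p58IPK, a BiP co-chaperone) at -0.10 and Manf, a secreted ER stress protein, at -0.02. Creld2, an ER stress gene, was at -0.22 (edgeR adjusted p = 0.0181). Calr, Canx, Dnajc3 and Creld2 all hold an ERSE in the searched window.

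The mRNAs of BiP (Hspa5) and GRP94 (Hsp90b1) moved in opposite directions at the top of the range of levels. The small fall of Hsp90b1 lost its call in most fits with a sample left out. On the length-scaled FPKM values the ratio of Hspa5 to Hsp90b1, a pair chosen after their values were seen, was 0.681, 0.711 and 0.708 under DMSO, against 0.910, 0.996 and 1.10 under SD70. The ratio was higher in every SD70 sample. The level of Hsp90b1 was 831 ± 4.09 FPKM with DMSO and 727 ± 56.8 with SD70, and that of Hspa5 was 581 ± 13.8 and 725 ± 11.6 (SD, n = 3).

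Among the 7 disulfide enzymes, 0 rose (0.0%, against 25.8% of all genes tested), 3 fell (42.9%, against 24.2%) and 4 did not pass. P4hb, which encodes protein disulfide isomerase itself, had 15777, 14278 and 15196 normalized counts with DMSO and 11701, 12252 and 11385 with SD70. The groups were separate, with a level 1.28-fold lower (log2 change -0.36 with SE 0.0497, edgeR adjusted p = 1.61e-07). Pdia6 had 13316, 12917 and 13101 with DMSO and 11488.5, 11081 and 10832 with SD70. It too was lower in every SD70 sample (log2 change -0.24 with SE 0.0474, edgeR adjusted p = 6.22e-05).

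Txndc11, a thioredoxin-domain protein of the ER, was a less abundant gene of this group. It had 1090.4, 1062 and 1122 normalized counts with DMSO and 818, 848 and 756 with SD70. All SD70 samples were lower (log2 change -0.43 with SE 0.0606, edgeR adjusted p = 1.67e-07). Pdia3 (ERp57, the partner of calnexin and calreticulin), Pdia4, Dnajc10 (ERdj5, a reductase) and Txndc5 did not pass, with log2 fold changes of -0.05, -0.12, -0.01 and -0.09.

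The ERAD genes held the largest change among the members. Of the 10 tested, 3 rose (30.0%), 3 fell (30.0%) and 4 did not pass, beside 25.8% and 24.2% of all genes tested. Herpud1 (Gene ID 64209, on chromosome 8) encodes an ER membrane protein that gathers the ubiquitin ligase complex. It had 800.0, 908 and 985 normalized counts with DMSO and 4612, 4748 and 5379 with SD70. The samples were far apart and Herpud1 was 5.47-fold higher (log2 change 2.45 with SE 0.0698, edgeR adjusted p = 3.01e-18). In FPKM it went from 31.7 ± 3.14 to 171 ± 14.9 (SD, n = 3), from rank 2872 to rank 435 among all genes listed.

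Derl1 and Derl2 encode derlins, membrane proteins of the channel that returns protein to the cytosol. Derl1 had 1229, 1274 and 1313 normalized counts with DMSO and 1689, 1762 and 1891 with SD70, so the groups were separate (log2 change 0.48 with SE 0.0561, edgeR adjusted p = 3.72e-09). Derl2 rose with a log2 fold change of 0.35 (SE 0.0622, edgeR adjusted p = 1.18e-05), and it was the only member with expected counts that were not whole numbers in the deposited values. Derl3 had 1, 1 and 0 counts with DMSO and 0 in each SD70 sample, which allows up to 3 counts in a library by counting error, and was not tested.

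The EDEM genes, whose products trim mannose from misfolded glycoproteins and so mark them for ERAD, all fell. Edem2, the member thought to take the initial step, had 828, 743 and 778 normalized counts with DMSO and 546, 632 and 560.0 with SD70. The groups did not overlap, and Edem2 was 1.35-fold lower (log2 change -0.43 with SE 0.0690, edgeR adjusted p = 1.77e-06). Edem3 and Edem1 fell by 0.29 and 0.26 on the log2 scale (adjusted p = 2.66e-05 and 4.13e-05 from edgeR).

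The other 4 tested ERAD members are grouped here because they did not pass in either direction. Syvn1 (the ubiquitin ligase HRD1) was at a log2 fold change of 0.05 (SE 0.0556), its partner Sel1l at 0.13 (SE 0.0530, adjusted p = 0.0300), the lectin Os9 at -0.04 (SE 0.0515) and Vcp, the ATPase that pulls substrates out of the membrane, at 0.11 (SE 0.0471, adjusted p = 0.0451, all from edgeR). These values stand beside the log2 changes of 2.45 for Herpud1, 0.48 for Derl1 and 0.35 for Derl2, which rose, and beside the EDEM genes, which fell.

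Of the 3 genes of the protein-conducting channel, 1 fell (33.3%, against 24.2% of all genes tested) and 0 rose (0.0%, against 25.8%). Ssr1, a subunit of the translocon-associated protein complex, had 5168.5, 5352 and 5379 normalized counts with DMSO and 4102, 4329.7 and 4087 with SD70. All SD70 samples were lower (log2 change -0.34 with SE 0.0488, edgeR adjusted p = 2.20e-07). Sec61a1, the pore subunit, had 2189.6, 2399.9 and 2422 with DMSO and 2233, 2431 and 2424 with SD70, and its log2 fold change of 0.02 (SE 0.0538, edgeR adjusted p = 0.822) changed sign with the scaling, to -0.02 with library totals alone.

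Sec61b, the small beta subunit, had 1826, 2008 and 2105 normalized counts with DMSO and 1759.7, 1936 and 1558 with SD70. The groups overlapped and the fitted change did not pass (log2 change -0.18 with SE 0.0676, edgeR adjusted p = 0.0290). It passed in edgeR without DMSO sample 1 (adjusted p = 0.00568), without SD70 sample 2 (adjusted p = 0.00199) and when every gene with a count was tested (adjusted p = 0.00369). Its log2 change shrank to -0.11 without SD70 sample 3 (adjusted p = 0.156) and to -0.14 without DMSO sample 3 (adjusted p = 0.106).

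**Figure D2:**
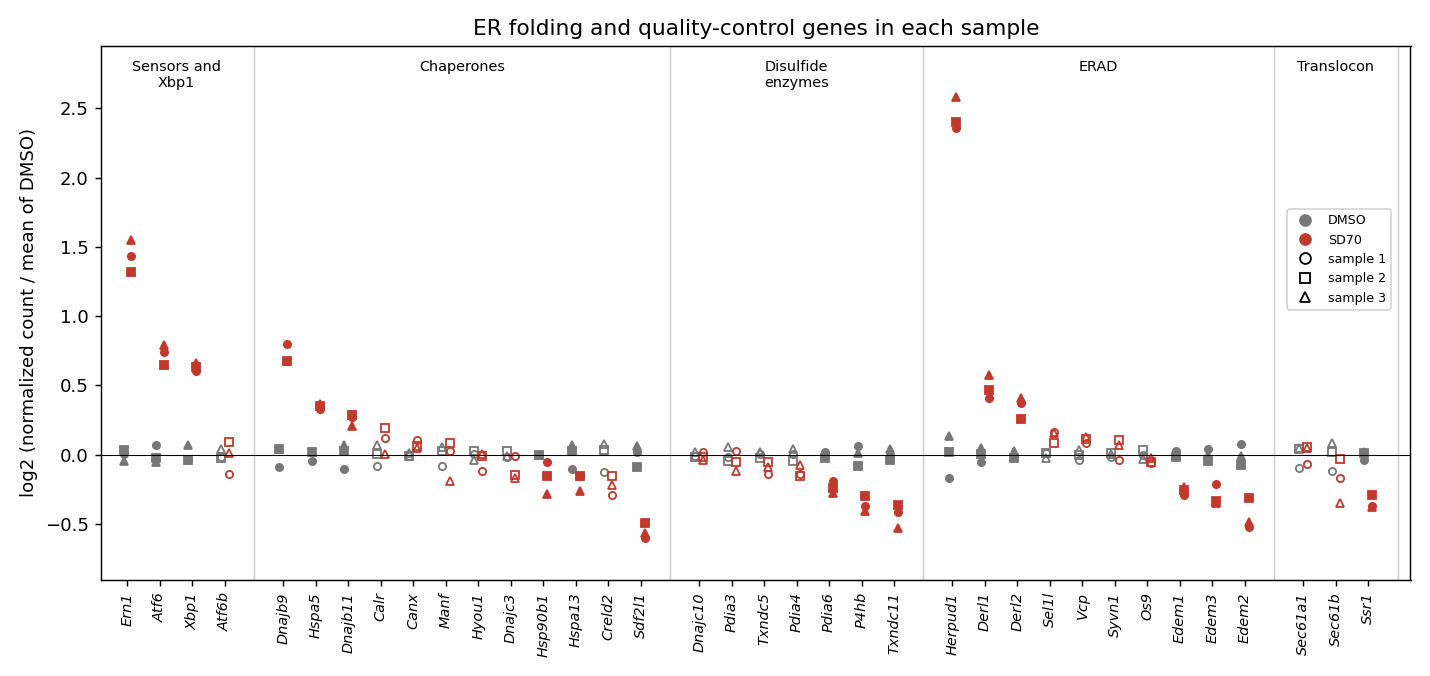
Log2 of each sample's normalized count over the DMSO mean (y axis) for the 36 tested members, grouped by role and ordered by fold change, with DMSO in grey, SD70 in red and open symbols for genes that did not pass an adjusted p of 0.01. Herpud1 and Ern1 stand above the rest, all other members have fitted log2 changes between -0.55 and 0.73, and no role list but the sensors moves one way past the threshold in most of its genes.

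The summed level of the members changed little. Together they made up 0.896%, 0.892% and 0.917% of all FPKM under DMSO, against 0.936%, 0.926% and 0.907% under SD70, and these ranges overlap. The chaperones and disulfide enzymes alone made up 0.716%, 0.707% and 0.729% with DMSO and 0.718%, 0.703% and 0.681% with SD70, which overlap as well. With DMSO the most abundant members were Hsp90b1, Hspa5, Calr (508 ± 22.8 FPKM) and Pdia3 (459 ± 15.0, SD, n = 3), and the least abundant tested member was Derl2 (12.5 ± 0.165). With SD70, Hsp90b1 and Hspa5 could not be told apart by level.

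**Figure D3:**
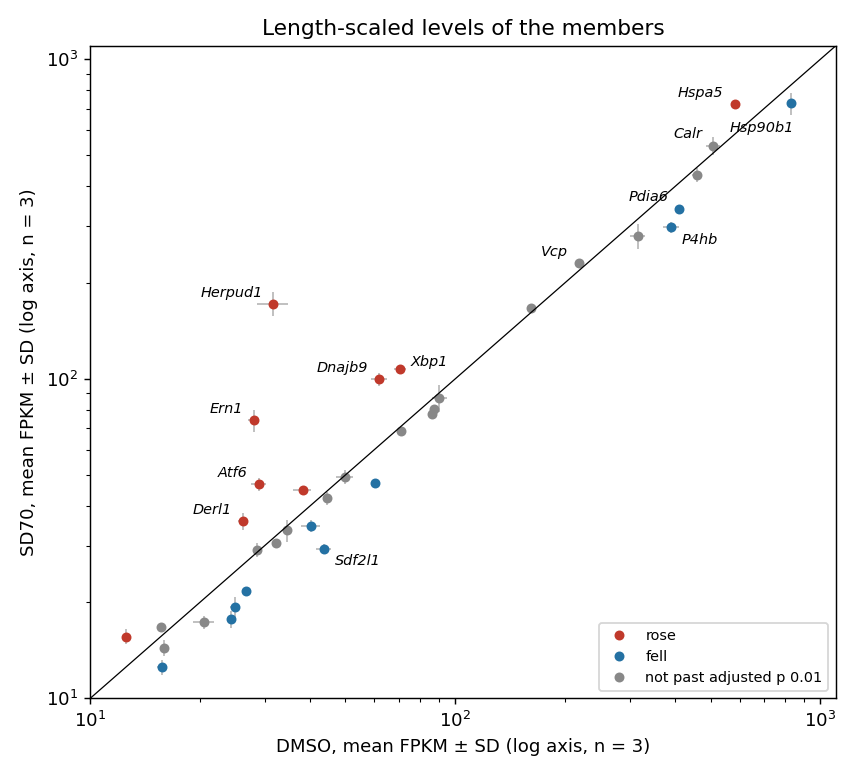
Mean FPKM of the 36 tested members with DMSO (x axis) and SD70 (y axis), both log axes, with SD as error bars (n = 3) and the line of equal levels; red genes rose, blue fell and grey did not pass an adjusted p of 0.01. The genes above 200 FPKM lie near the line, whereas Herpud1, at 31.7 and 171 FPKM, lies farthest from it.

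The arms were then compared through lists of textbook targets. The ATF6 list held 13 members, of which 4 rose (Hspa5, Dnajb11, Herpud1 and Xbp1), 3 fell (Hsp90b1, Pdia6 and Sdf2l1) and 6 did not pass, with a median log2 fold change of -0.02. The XBP1 list held 15 members, of which 14 were tested, 3 rose (Dnajb9, Derl1 and Derl2), 5 fell (Edem1, Edem2, Hspa13, Txndc11 and Ssr1) and 6 did not pass, with a median of -0.10. The shares that rose, 30.8% of the ATF6 list and 21.4% of the XBP1 list, stand beside 25.8% of all genes tested, and the shares that fell, 23.1% and 35.7%, beside 24.2%. With a minimum fold change of 1.5 added, 2 of the ATF6 list (Herpud1 and Xbp1) and 1 of the XBP1 list (Dnajb9) were higher. The lists were drawn up with earlier results of these data known.

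The ATF4 list, of genes outside the members, held 32 listed genes, of which 31 rose (96.9%, against 25.8% of all genes tested). At least 2-fold higher were 25 of them, and the median log2 fold change of the list was 1.26. Only Slc7a3, an amino acid transporter with 6.82 to 10.9 normalized counts, did not pass. Atf4 itself had 6823, 7833 and 8832 normalized counts with DMSO and 30740.2, 32089 and 31069 with SD70. The groups were 4.00-fold apart (log2 change 2.00 with SE 0.0713, edgeR adjusted p = 1.57e-13). Since this list was chosen with the rise of several of its genes known, its count is a description.

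Genes of the ATF4 list that stand for its different outputs all rose. Ddit3, which encodes the transcription factor CHOP, had 422, 453 and 473 normalized counts with DMSO and 2810.0, 2784 and 2903 under SD70 (log2 change 2.66 with SE 0.0601, edgeR adjusted p = 2.37e-28). Trib3, a pseudokinase induced by ATF4 and CHOP, had a log2 fold change of 2.96, Chac1, an enzyme that degrades glutathione, of 3.88, and Atf3, a stress transcription factor, of 3.74. Asns, asparagine synthetase, had 3177, 3337 and 3573 with DMSO and 7437, 7503 and 8022 with SD70, a log2 fold change of 1.19 (SE 0.0523). The log2 changes of the list spanned 0.24 to 3.88, and those of the ATF6 list spanned -0.55 to 2.45.

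Eif2ak3, which encodes the ER kinase PERK and was singled out after its values were seen, went the other way from Ern1 and Atf6. It had 804, 813 and 816 normalized counts with DMSO and 650.5, 606 and 562 with SD70. Each SD70 sample was lower (log2 change -0.42 with SE 0.0658, edgeR adjusted p = 1.43e-06).

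**Figure D4:**
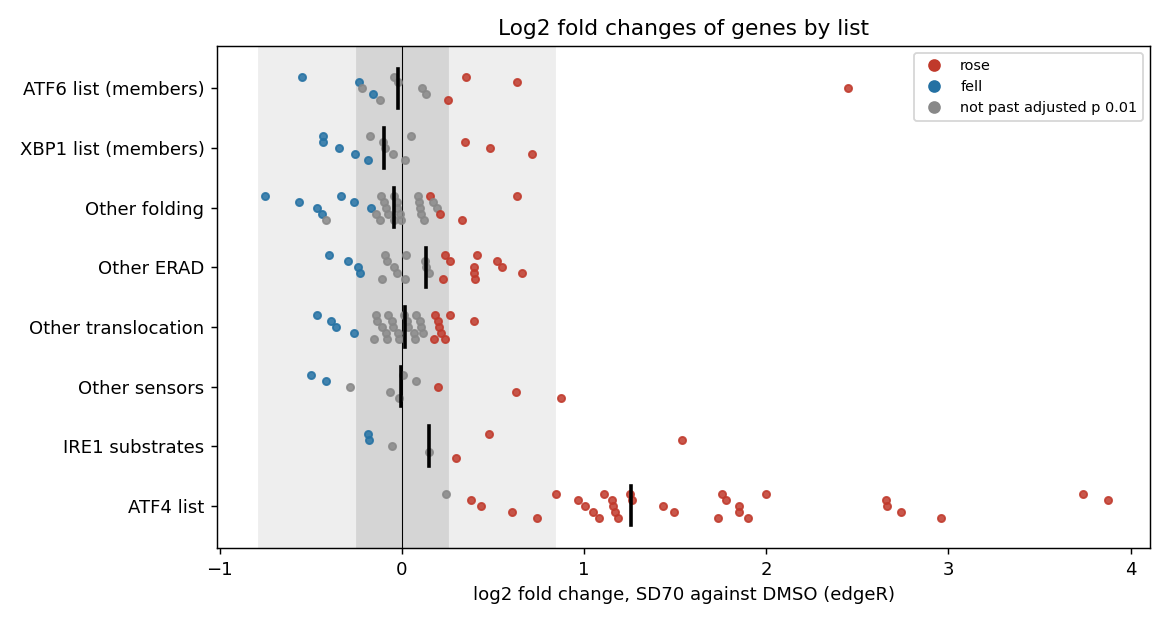
Log2 fold change of SD70 against DMSO (x axis) for the tested genes of each list (rows), with red for genes that rose, blue for genes that fell, grey for the rest and a black bar at the median; vertical scatter is for display. The dark band holds the middle of all tested genes (-0.25 to 0.25, the 25th to 75th percentile) and the pale band the 5th to 95th percentile (-0.78 to 0.84). Of the 8 lists drawn, only the ATF4 list has its median, 1.26, outside the dark band. The sensor members, not drawn as a list, have a median of 0.68.

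Other genes of the same machinery were taken from lists of non-members. Of 31 other folding genes, 4 rose (12.9%), 7 fell (22.6%) and 20 did not pass, with a median log2 fold change of -0.04. Over all genes tested, 25.8% rose and 24.2% fell. Those with the largest changes were Cnpy2, a saposin-like ER protein, at 0.63 (SE 0.0666, adjusted p = 4.74e-10), and Ero1l, the oxidase that recharges protein disulfide isomerase. Ero1l had 58853, 45314 and 47493 normalized counts with DMSO and 32966, 29902 and 27145 with SD70. It fell by 0.75 on the log2 scale (SE 0.130, edgeR adjusted p = 0.00475), and the call was lost without SD70 sample 2 (adjusted p = 0.0296) or SD70 sample 3 (adjusted p = 0.0210). Its log2 change stayed between -0.84 and -0.63 in all 14 alternative fits.

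Of 24 other ERAD genes, 10 rose (41.7%, against 25.8% of all genes), 4 fell (16.7%, against 24.2%) and 10 did not pass. Their median was 0.13. Ngly1, which strips sugar chains from ERAD substrates, rose with a log2 fold change of 0.66 (SE 0.0809). Of 32 other genes of translocation and early secretion, 8 rose (25.0%), 4 fell (12.5%) and 20 did not pass (median 0.02). Sec24d, a coat protein of ER export vesicles, was at a log2 fold change of -0.47 (SE 0.0548). Srprb, a subunit of the signal recognition particle receptor, was at 0.39 (SE 0.0576).

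Of 10 other sensor and factor genes, 3 rose (30.0%, against 25.8% of all genes tested), 2 fell (20.0%, against 24.2%) and 5 did not pass. Traf2, an adaptor of IRE1, rose with a log2 fold change of 0.87 (SE 0.0669) and Nfyc, a subunit of NF-Y, the factor that binds ERSE with ATF6, with 0.63 (SE 0.0635). Of 8 genes known as substrates of the IRE1 nuclease, 7 were tested. Of these 7, 3 rose (42.9%), 2 fell (28.6%) and 2 did not pass, with a median of 0.15. Pdgfrb, reported as such a substrate, had 552, 561 and 544 normalized counts with DMSO and 1415, 1608 and 1795 with SD70. It was higher in every SD70 sample (log2 change 1.54 with SE 0.0705, edgeR adjusted p = 2.09e-17), and Hgsnat, a lysosomal enzyme, rose with 0.48 (SE 0.0596).

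Among the promoters, the genes with an ERSE were called about as often as all genes tested. Of the 8 tested members with an ERSE, Hspa5 rose, Hsp90b1 and Pdia6 fell and 5 did not pass. Over all 18 tested genes with an ERSE, those 8 included, 4 rose (22.2%, against 25.8% of all genes), 4 fell (22.2%, against 24.2%) and 10 did not pass, with a median log2 fold change of 0.06. ERSE-II was in 12 promoters (0.0365%) and in 9 tested genes. Of these 9, 6 rose (66.7%, against 25.8% of all genes), 0 fell (0.0%, against 24.2%) and 3 did not pass. Their median log2 fold change was 0.41, and Herpud1 and Dnajb11 were 2 of the 6 that rose. UPRE was in 0.676% of promoters and in 3 members, of which Txndc11 fell while Vcp and Txndc5 did not pass. Of its 94 tested genes, 26 rose (27.7%) and 22 fell (23.4%), near the shares of all genes, as with ERSE.

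CARE was in 294 promoters (0.895%) and, among the members, in Herpud1 alone. Of the 78 tested genes with a CARE, 37 rose (47.4%, against 25.8% of all genes tested), 11 fell (14.1%, against 24.2%) and 30 did not pass, with a median log2 fold change of 0.26. These counts describe exact letters in a fixed window, and no test was run on them. Binding by any factor was not measured. Genes with an element come from the 9284 tested genes that had a promoter entry, whereas the shares of all genes are over all 11552 tested.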

How the data were processed

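RNA-seq of 6 samples was used, 3 with DMSO and 3 with SD70, grouped by the sample labels. The authors aligned clean BGISEQ-500 reads to GRCm38.p6 with HISAT according to the paper, whereas the submitters' processing notes name mm8 and StringTie 1.3.3b, and this difference was not resolved. The authors deposited for each gene an expected count, not normalized and for 8.84% to 9.28% of values not whole, and an FPKM value scaled by length and library size, a unit inferred from the values. No column of another sample was present.

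Expected counts were rounded, filtered by filterByExpr (11552 of 16081 genes kept), normalized by TMM (factors 0.984 to 1.02) and fitted with the quasi-likelihood functions of edgeR 4.0.16 (robust glmQLFit, then glmQLFTest) under R 4.3.3. The standard error was derived from the F statistic. Totals were 15276744 to 17060424, with 3 samples per group, and the biological coefficient of variation was 0.046. Samples of a group differed by more than sampling noise (chi-square per gene 2.12 to 4.92) and all were kept. The fits were tested on simulated data.

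The members and lists were chosen with earlier results of these data known. Values in every sample are given for 8 stated members, for members called at 2-fold, for the 3 largest changes in each role and for the member left out by the filter. Outside the members, 5 stated ATF4 targets and the 2 largest changes in each list are named, from genes with an adjusted p under 0.01 and at least 100.0 normalized counts on average. A gene that this rule picks is not reported here. Eif2ak3, Slc7a3 and the remaining members fall outside this rule or were named to account for a count.

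The alternatives were DESeq2's size factors, library totals, 2 other filters on low counts, a block on replicate number, omission of each sample, DESeq2 1.42.0 (Wald test), limma 3.58.1 (trend) on log2(FPKM + 1) and log2(FPKM + 0.1), an adjusted p under 0.05 and a minimum fold of 1.5. RefSeq promoters were searched by exact match.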

Additional observations from a re-analysis of the deposited data

How the results depend on the processing

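The number of members that rose ranged from 5 to 11 over all alternatives and was 9 in each fit that left out 1 sample. The number that fell ranged from 0 to 13, and from 8 to 11 when 1 sample was left out. A minimum fold change of 1.5 gave 5 members higher and 0 lower, 2 of the ATF6 list higher and 1 of the XBP1 list higher, since the members that fell were between 1.12-fold and 1.46-fold lower in edgeR's fit. The count of members at 2-fold was 2 under every alternative except the 1.5-fold minimum, which was not run for it, and 29 to 31 genes of the ATF4 list rose. The sign of 3 small changes turned. With 1 sample left out, the log2 change of Atf6b ranged from -0.0600 to 0.0534, above 0 without DMSO sample 3 or SD70 sample 1. Sec61a1 was -0.0230 with library totals, -0.0167 and -0.0170 by limma on log2(FPKM + 1) and log2(FPKM + 0.1), and from -0.0303 to 0.0558 with 1 sample left out, below 0 without DMSO sample 1, SD70 sample 2 or SD70 sample 3. Manf ranged from -0.0753 to 0.0483, above 0 without SD70 sample 3. The cause was not tested. Creld2 passed by limma on both FPKM scales (adjusted p = 0.00564 and 0.00521), with library totals (0.00643) and without DMSO sample 1 (0.00610), and Pdia4 passed with library totals (0.00536). With the replicate number as a replicate block, 9 members rose and 10 fell, as without it. Deviations of samples with the same number correlated at -0.0686 to 0.114 over all tested genes, at 0.157 to 0.254 over genes with a mean count of at least 100, at -0.0361 to 0.168 from 500 and at -0.0272 to 0.238 from 2000. Between samples with different numbers, the highest correlations were 0.0925, 0.0112, 0.314 and 0.401 over the same sets of genes, in that order. Whether the numbers pair the samples thus depended on the genes used, and they were not taken as pairs. Derl3 had too few counts to be tested.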
